A study of Mus musculus with 4 samples.

Results

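Mitochondrial ribosomal protein promoters were taken as the rows of the deposited promoter table whose gene symbol consists of Mrpl or Mrps, a number and at most 1 further letter. There were 76 of them among 26354 promoters, 29 under Mrps symbols and 47 under Mrpl symbols. H3K9me2, dimethylation of lysine 9 on histone H3, was measured by ChIP-seq in the aortic media of male C57Bl/6J mice, a tissue made mainly of vascular smooth muscle cells (VSMCs), which was fixed directly after the adventitia and endothelium had been stripped away by hand. The labels name no transgene and no treatment of the animals, and give neither their age nor their number per experiment. Experiments v102 and v134 each gave 1 H3K9me2 ChIP library and 1 input library, the input being chromatin sequenced without the antibody. The only contrast is therefore ChIP against input, and a promoter called below or above input had fewer or more ChIP reads for its input than the scaling of the libraries predicts.

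Mitochondrial ribosomes synthesise the few proteins encoded by mitochondrial DNA, all of them membrane subunits of the oxidative phosphorylation complexes. Their RNA comes from mitochondrial DNA, but every protein subunit is encoded in the nucleus, made in the cytosol and imported, and some have counterparts in bacterial ribosomes while others exist only in mitochondria. The genes are broadly expressed housekeeping genes, whereas H3K9me2, written mainly by the methyltransferases EHMT1 and EHMT2, is a mark of repressed chromatin.

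The start regions of the 5 members called above input and of the 2 members without any ChIP read are shown first, because these are the extremes on which the description turns. Each runs 5′ to 3′ on the strand of the gene from 200 bases before the annotated start to 30 bases into the first exon, except Mrps34, for which 30 bases before the start are printed. Positions follow GRCm38 with GENCODE gene starts, and bases come from the GRCm38.p6 RefSeq genome. The regions are chr2:28467866-28468095 for Mrps2, chr17:47368687-47368916 for Mrps10, chr17:46110786-46111015 for Mrps18a, chr4:126046725-126046954 for Mrps15, chr9:105053039-105053268 for Mrpl3 and chr17:24895086-24895145 for Mrps34, all on the plus strand, and chr2:24975069-24975298 on the minus strand for Mrpl41. Capitals mark the letters CCGGAAG (the core bound by ETS factors), ATGGCGG (the YY1 core) and CCAAT (the CCAAT box) on either strand, a match on the other strand being printed as its reverse complement. GCATGCG (the NRF1 core) and TATAAA (the TATA box) were also searched and occur in none of the 7 regions.
Mrps2: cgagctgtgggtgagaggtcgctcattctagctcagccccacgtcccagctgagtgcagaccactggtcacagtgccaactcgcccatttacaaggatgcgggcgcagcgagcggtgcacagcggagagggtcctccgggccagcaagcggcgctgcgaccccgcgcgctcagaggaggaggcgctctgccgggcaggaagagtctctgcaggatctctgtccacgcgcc
Mrps10: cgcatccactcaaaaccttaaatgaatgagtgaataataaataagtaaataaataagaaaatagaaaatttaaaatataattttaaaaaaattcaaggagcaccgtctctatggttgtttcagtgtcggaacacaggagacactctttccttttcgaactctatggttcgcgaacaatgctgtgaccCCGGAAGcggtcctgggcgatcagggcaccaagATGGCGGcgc
Mrps18a: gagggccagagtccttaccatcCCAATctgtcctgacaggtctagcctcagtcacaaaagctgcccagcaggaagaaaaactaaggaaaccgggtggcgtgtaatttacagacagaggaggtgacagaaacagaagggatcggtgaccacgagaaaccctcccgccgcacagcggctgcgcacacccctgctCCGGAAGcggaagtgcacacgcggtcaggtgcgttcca
Mrps15: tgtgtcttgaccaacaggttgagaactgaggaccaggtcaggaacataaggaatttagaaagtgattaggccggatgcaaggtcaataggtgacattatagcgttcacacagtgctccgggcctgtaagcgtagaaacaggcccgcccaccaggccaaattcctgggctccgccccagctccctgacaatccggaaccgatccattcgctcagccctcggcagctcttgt
Mrpl3: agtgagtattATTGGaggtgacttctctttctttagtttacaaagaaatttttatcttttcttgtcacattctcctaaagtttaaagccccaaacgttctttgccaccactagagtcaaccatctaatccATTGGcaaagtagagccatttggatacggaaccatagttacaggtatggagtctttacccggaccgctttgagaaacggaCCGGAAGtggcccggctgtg
Mrps34: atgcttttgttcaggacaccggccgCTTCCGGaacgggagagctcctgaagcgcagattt
Mrpl41: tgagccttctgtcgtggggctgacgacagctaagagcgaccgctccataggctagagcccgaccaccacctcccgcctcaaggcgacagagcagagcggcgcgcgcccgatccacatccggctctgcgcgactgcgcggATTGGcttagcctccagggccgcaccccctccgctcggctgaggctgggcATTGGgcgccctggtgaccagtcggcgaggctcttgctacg

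As a group these promoters lay below the table's median in both experiments when every member was counted, and a few, under Mrps and Mrpl symbols, stood high. Summed over the 76 promoters, there were 307 ChIP reads against 1753 input reads in v102, and 632 against 3319 in v134. The pooled H3K9me2/input ratio was 0.175 (95% Wilson interval 0.155 to 0.198) in v102 and 0.190 (0.175 to 0.207) in v134, without scaling for library size. Relative to the same ratio over all promoters outside the mitochondrial genome, this was 0.574 in v102 and 0.833 in v134. Intervals here cover counting error only and leave out the variation between experiments. Reads carry no molecular identifiers and the handling of duplicates is not given, so even the counting error may be understated.

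For single promoters, ChIP and input reads plus 1 read were scaled by the promoter total of their library, and the log2 ratio was averaged over both experiments. The median log2 ratio of the members was -0.56 ± 0.17 (SD of the 2 experiments' medians, -0.71 in v102 and -0.47 in v134), compared with -0.31 over all promoters. The median member stood at percentile 42.6 of the table, but at 51.1 of the promoters with 20 or more reads in each input, which 56 members pass. Of the 76 members 23 were in its lowest quartile and 7 in its top quartile. In both experiments 11 members were in the lowest quartile and 4 in the top quartile, and those 4 were Mrps2, Mrps10, Mrps18a and Mrps15. Of all 26354 promoters, 3353 were in the lowest quartile in both experiments and 4658 in the top quartile in both. The 11 members were thus near the share of the table, and the 4 were under it. The deposited ratio, summed ChIP over summed input reads, had a median of 0.133 in the members and 0.162 over the table, and 9 members reached the table's 75th percentile of 0.343.

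The quasi-likelihood test of edgeR, Benjamini-Hochberg adjusted over all 26354 promoters, called 16 of the 76 members (21.1%) below input, against 17.0% of all promoters. In the other direction 5 members (6.58%) were called above input, against 18.6% of all promoters. The remaining 55 were not called. Among the 56 members with 20 or more reads in each input, edgeR called 7 below (12.5%), against 12.0% of all such promoters, and 7 above (12.5%), against 17.5%. With the experiment as a block there were 9 members below, against 8.30% of all promoters, and 3 above, against 15.8%. DESeq2 called 0 below, against 0.102% of all promoters, and 2 above, against 11.6%. It left the adjusted p undefined at all 16 members that edgeR called below, and 9 members were below at an unadjusted p under 0.05. Both counts moved when 1 library was left out, and the count below fell most without an input library. Such fits leave 1 library in a group, and the share of all promoters called under them is not given here. The drop can therefore not be set against the table or read as particular to the members.

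**Figure D1:**
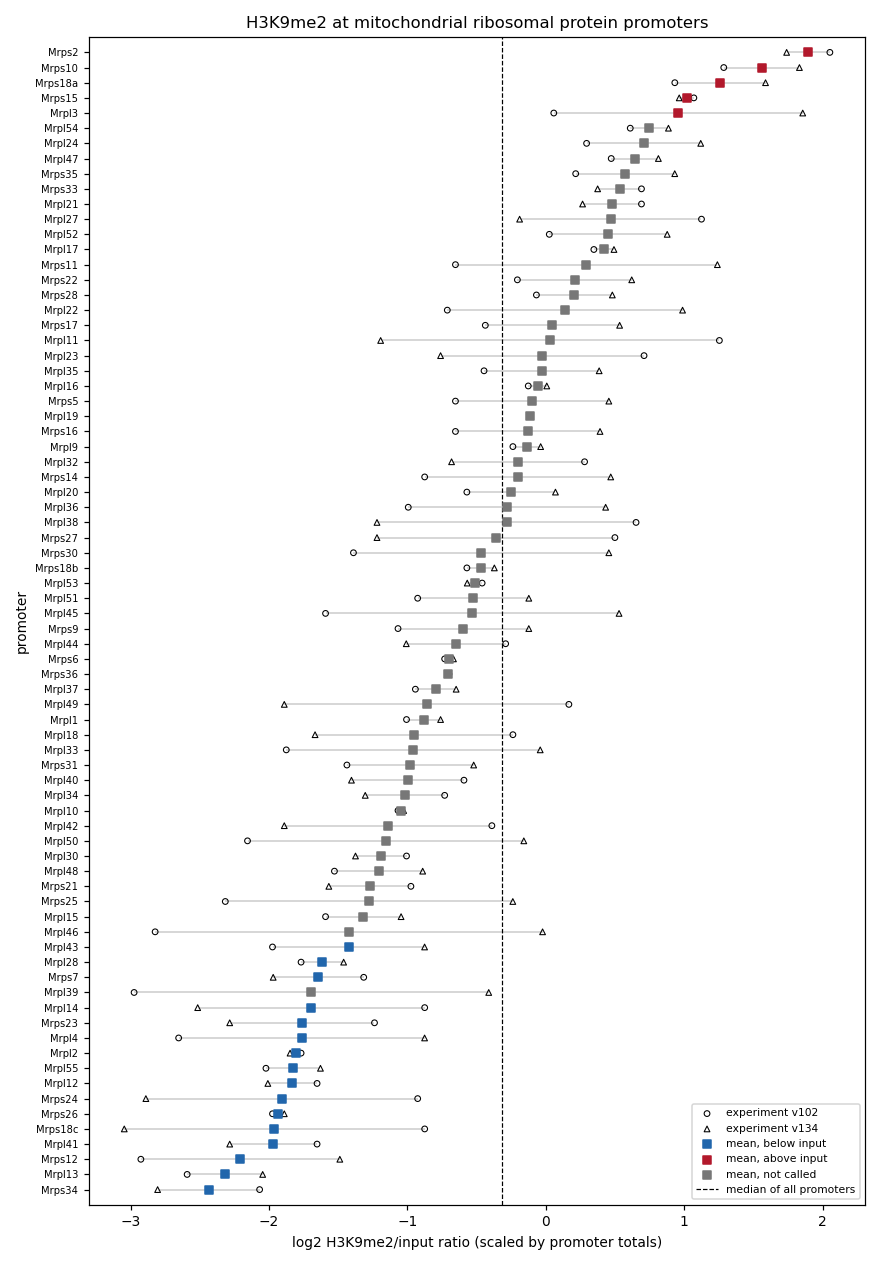
Log2 H3K9me2/input ratio (x axis, scaled by promoter totals) of each of the 76 promoters (y axis, ranked by the mean), with circles for experiment v102, triangles for v134, squares for the mean coloured by the edgeR call, and a dashed line at the median of all promoters. Mrps2, Mrps10, Mrps18a, Mrps15 and Mrpl3 form the upper end, and for Mrpl3 the experiments lie far apart.

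Counts were low, which limits single promoters more than the group. In v102 the median member had 3 ChIP and 23 input reads, and in v134 it had 6 and 42. For the median promoter of the table these were 4 and 20 in v102, and 5 and 37 in v134. Summed input reads of the members ran from 31 to 114, and summed ChIP reads from 0 to 67. Across the 76 members the log2 ratios of the experiments had a Pearson r of 0.46 and a Spearman rho of 0.48, compared with 0.69 and 0.69 across the 26354 promoters, where each point shares its 4 libraries with all others. Of the 76 members, 48 were on the same side of the median in both experiments.

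**Figure D2:**
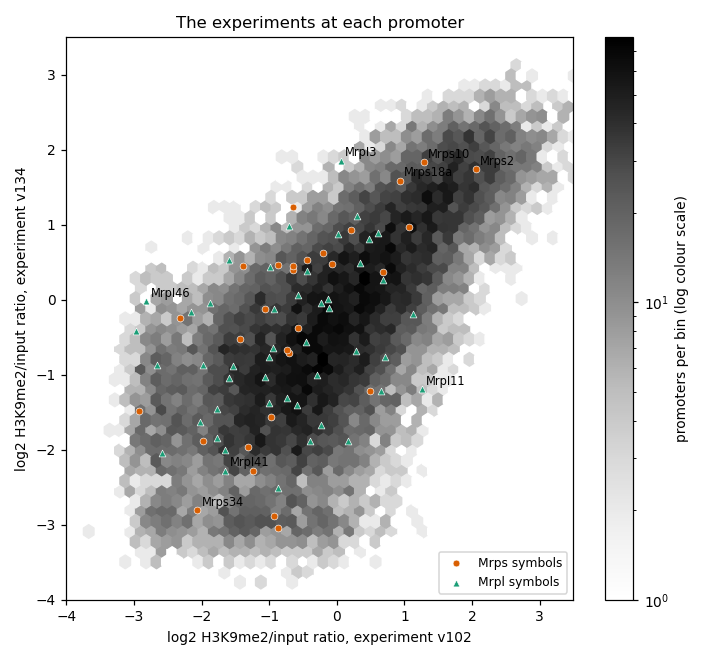
Log2 H3K9me2/input ratio of each promoter in experiment v102 (x axis) and v134 (y axis), with all promoters as grey hexagons (darker for more promoters, log colour scale), Mrps symbols as circles and Mrpl symbols as triangles. Mrps2, Mrps10 and Mrps18a are high in both experiments, whereas Mrpl3, Mrpl46 and Mrpl11 lie away from the main cloud.

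The upper end was held by Mrps2, which encodes a small subunit protein with a bacterial counterpart. It had 24 and 28 ChIP reads in v102 and v134 against 22 and 40 input reads, the only member with more ChIP than input reads in a library pair. Its deposited ratio was 0.839 (95% Wilson interval 0.581 to 1.21), its log2 ratio 1.90 ± 0.22 (SD, n = 2) and its percentile 94.7. The log2 fold change was 2.01 (SE 0.37, edgeR adjusted p = 1.18e-06), and the promoter was called under all 10 alternative settings, with adjusted p up to 0.00252.

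Mrps10, another small subunit protein shared with bacteria, followed with 22 and 45 ChIP reads against 35 and 60 input reads. Both ChIP libraries were thus rich in reads, and its 67 ChIP reads were the most of any member. Its ratio was 0.705 (interval 0.517 to 0.963), its log2 ratio 1.56 ± 0.39 (SD, n = 2) and its log2 fold change 1.73 (SE 0.34, edgeR adjusted p = 5.44e-06). It too was called under all 10 settings, with adjusted p up to 0.0178.

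Mrps18a has a small subunit symbol, but its protein is placed in the large subunit of the mammalian ribosome. It had 14 and 20 ChIP reads against 29 and 32 input reads, a ratio of 0.557 (interval 0.368 to 0.845) and a log2 ratio of 1.26 ± 0.46 (SD, n = 2). The log2 fold change was 1.37 (SE 0.40, edgeR adjusted p = 0.00406), and the call held under 8 of 10 settings, where adjusted p ranged from 0.000505 to 0.198. DESeq2 (adjusted p = 0.0775) and the fit without the v134 input were the 2 settings that lost it.

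Mrps15, also a small subunit protein with a bacterial counterpart, had 10 and 18 ChIP reads against 19 and 45 input reads. The experiments gave nearly the same log2 ratio, 1.02 ± 0.07 (SD, n = 2), with a deposited ratio of 0.438 (interval 0.282 to 0.680). Its log2 fold change of 1.08 (SE 0.42) passed the edgeR test narrowly (adjusted p = 0.0327), but not with the experiment as a block (adjusted p = 0.0548), and it was called under 3 of 9 settings, where adjusted p ranged from 0.0148 to 0.265.

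Mrpl3, a large subunit protein near the peptidyl transferase centre, was the only Mrpl promoter called above input. Its reads were 2 and 22 in the ChIP libraries against 10 and 29 in the input libraries, so the excess came from experiment v134. The log2 ratio was 0.06 in v102 and 1.86 in v134, and the ratio of the sums was 0.615 (interval 0.372 to 1.02). Its log2 fold change was 1.55 (SE 0.48, edgeR adjusted p = 0.00639), but adjusted p was 0.0665 with the experiment as a block, and without the v134 ChIP library the fold change was -0.73 (adjusted p = 0.608). It was called under 4 of 9 settings, where adjusted p ranged from 7.95e-06 to 0.608.

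Below these came Mrpl54, Mrpl24 and Mrpl47, subunits of the large particle, none of which was called. Mrpl54 had 7 and 17 ChIP reads against 19 and 45 input reads, with a log2 ratio of 0.75 ± 0.20 (SD, n = 2). Mrpl24 had 8 and 22 against 27 and 49, with a log2 ratio of 0.71 ± 0.58 (SD, n = 2). Mrpl47 had 11 and 15 against 32 and 42, with a log2 ratio of 0.64 ± 0.24 (SD, n = 2). All 3 were near the boundary of the table's top quartile, at percentiles 76.8, 76.0 and 74.7.

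At the lower end, Mrps34 and Mrpl41 had no ChIP read in either experiment. Mrps34, a small subunit protein found only in mitochondria, had 15 and 32 input reads, and 0 ChIP reads over both experiments allow a ratio of up to 0.0638 (3 counts). Mrpl41, a large subunit protein found only in mitochondria, had 11 and 22 input reads. In the same way 0 ChIP reads allow a ratio of up to 0.0909, and the Wilson interval reaches 0.116. Both were called below input by edgeR (adjusted p = 0.00214 for Mrps34 and 0.00923 for Mrpl41), and the call at Mrpl41 was lost with the experiment as a block (adjusted p = 0.0588).

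The other 6 of the 8 lowest members had 1 to 3 ChIP reads in all and were each called below input by edgeR, with adjusted p from 0.00394 at Mrpl13 to 0.0261 at Mrps24. Mrpl13, a large subunit protein, had 0 and 1 ChIP reads against 22 and 38 input reads, a ratio of 0.0167 (interval 0.00291 to 0.0955). Mrps12, which belongs to the decoding centre of the small subunit, had 0 and 3 against 28 and 52, a ratio of 0.0375 (0.0125 to 0.112). Mrps26, a small subunit protein found only in mitochondria, had 1 and 1 against 29 and 34, a ratio of 0.0317 (0.00855 to 0.118). These 3 were low in both experiments.

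Mrpl12, a protein of the stalk that binds translation factors, had 1 and 1 ChIP reads against 23 and 37 input reads, a ratio of 0.0333 (0.00897 to 0.124). Mrps18c, the small subunit relative of Mrps18a, had 2 and 0 against 20 and 38, a ratio of 0.0345 (0.00927 to 0.128). Mrps24, a small subunit protein, had 3 and 0 against 28 and 34, a ratio of 0.0484 (0.0161 to 0.146). For Mrps18c and Mrps24 the low value thus rested on experiment v134, and neither call held with the experiment as a block (edgeR adjusted p = 0.0681 and 0.0763). Of the 16 members called below input, 13 had at most 3 ChIP reads in all and none had more than 5.

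The members with most input reads ran from percentile 9.47 at Mrpl55 to 90.4 at Mrps10. Mrps36 had the most, with 4 and 10 ChIP reads against 30 and 84 input reads and a log2 ratio of -0.71 ± 0.01 (SD, n = 2). Its product is now known as a subunit of the alpha-ketoglutarate dehydrogenase complex rather than of the ribosome. Mrpl10, at the base of the stalk, had 3 and 7 ChIP reads against 31 and 76, and was not called (edgeR adjusted p = 0.0688). Mrpl55 of the large subunit had 1 and 4 against 30 and 72, and was called below input (edgeR adjusted p = 0.00485). Mrpl52 of the large subunit had 7 and 27 against 29 and 71, Mrps17 of the small subunit had 5 and 18 against 30 and 61, and neither was called. Mrps27, also of the small subunit, had the same 91 input reads in all as Mrps17, with 9 and 5 ChIP reads against 26 and 65, and was not called.

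The experiments differed most at Mrpl46, Mrpl39, Mrpl11, Mrps18c and Mrpl45. Mrpl46 had 0 and 4 ChIP reads against 26 and 23 input reads, and Mrpl39 had 0 and 6 against 29 and 43, both higher in v134. Mrpl45, which anchors the ribosome to the inner membrane, had 1 and 10 against 22 and 35, also higher in v134. Mrpl11 of the stalk base had 9 and 4 against 15 and 53, and was higher in v102, as was Mrps18c. None of these except Mrps18c was called, so their place in the order is not settled by these libraries.

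Grouped by symbol, Mrps promoters had a median log2 ratio of -0.47 and Mrpl promoters one of -0.80. Of the 29 Mrps promoters 7 were called below (24.1%) and 4 above input (13.8%), and of the 47 Mrpl promoters 9 were called below (19.1%) and 1 above (2.13%). Of all promoters 17.0% were below and 18.6% above, so the shares below lay near that of the table. The difference of the medians was 0.33, but 0.01 in v102 and 0.56 in v134, so it was not seen in both experiments. It was 0.10 once the trend of the ratio with promoter GC content, described below, was removed. The symbol does not always give the subunit, since the proteins of Mrps18a and Mrps30 are placed in the large subunit. Grouped by origin, the 48 genes with a bacterial counterpart had a median of -0.23, with 11 below (22.9%) and 5 above input (10.4%) by edgeR. The 27 found only in mitochondria had one of -0.86, with 5 below (18.5%) and 0 above (0 above at an unadjusted p under 0.05 in edgeR). DESeq2 also called 0 of these 27 above, but left the adjusted p undefined at most of them, so its count says little. With the experiment as a block, 4 Mrps and 5 Mrpl promoters were below, and 6 genes with a bacterial counterpart and 3 found only in mitochondria were below. That fit called 8.30% of all promoters below. In v102 the medians by origin were -0.65 and -0.94, and in v134 they were -0.16 and -0.57, the same order in both. With the GC trend removed, the median percentiles by origin were 41.3 and 42.6, and that order was not seen. The members were grouped with their values known, and these differences were not tested.

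Many of these genes share their start region with a neighbour. The window of 1 kb either side of the start overlapped that of another promoter in the table for 36 of the 76 members (47.4%), compared with 17.6% of the 22329 promoters with a GENCODE position. Where the counted windows lie at these starts, reads in the overlap are counted for both genes. A shared window is then not an independent measurement of the member. The start sites used for counting are not known, and counts differed at some close pairs. Mrpl36 and Ndufs6, 29 bases apart, had 4 and 13 against 9 and 6 ChIP reads. For 24 members the partner's start lay within 200 bases, and 19 of the 76 started head to head with a protein-coding gene. At those 24 pairs the log2 ratios of the partners differed by a median of 0.07 and by at most 0.97, and 2 pairs had identical counts in all 4 libraries, Mrps34 with Eme2, whose starts are 29 bases apart, and Mrps21 with C920021L13Rik.

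Members with a shared window carried less H3K9me2, as did all promoters with a shared window. The 36 members with a shared window had a median log2 ratio of -0.98, with 10 called below (27.8%) and 1 above input (2.78%), and the 40 members alone in their window had one of -0.23, with 6 below (15%) and 4 above (10%). Over all promoters with a position the medians were -0.91 for 3929 with a shared window and -0.23 for 18400 without. Of those promoters 30.3% with a shared window were below and 6.01% above input, and of the 18400 without 2757 were below and 3676 above, so the members alone were at the share of their kind below input and under it above input. With the experiment as a block, 6 members with a shared window and 3 alone were below, and 1 and 2 were above. That fit called 8.30% of all promoters below and 15.8% above. In their unadjusted medians and their shares below input the members thus lay close to the other promoters of their own kind. Those alone in their window stood at a median percentile of 52.5. With the GC trend removed, the members alone stood at a median percentile of 41.6, against 52.4 for all promoters alone. For shared windows these were 39.8 and 38.6, so members alone were then lower than their kind. Of the 5 members above input, Mrps10, Mrps18a, Mrps15 and Mrpl3 were alone, and Mrps2 overlapped 1700007K13Rik, whose start is 1734 bases away and which had 3 and 7 ChIP reads against 25 and 31 input reads.

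**Figure D3:**
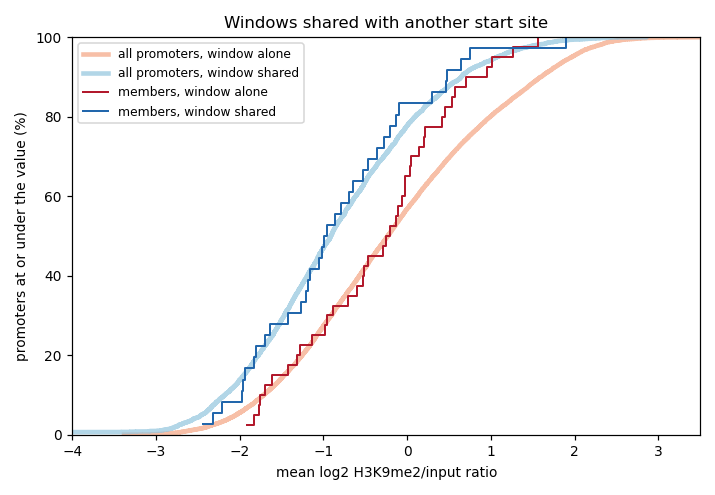
Cumulative share of promoters (y axis, %) at or under each mean log2 H3K9me2/input ratio (x axis), for members (thin lines) and all promoters with a position (thick lines), alone in their window (red) or sharing it (blue). Members follow the curve of the promoters of the same kind, with medians of -0.98 and -0.91 for shared windows and -0.23 and -0.23 for windows alone, except that few members reach the upper end.

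Mrps11 and Mrpl46 are the only members that share a window with each other, their starts lying 412 bases apart. Mrps11, a small subunit protein, had 4 and 15 ChIP reads against 29 and 31 input reads, and Mrpl46, a large subunit protein, had 0 and 4 against 26 and 23. Mrps11 was higher in both experiments although the windows at the GENCODE starts overlap over most of their length, and neither was called.

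Promoter base composition moved with the ratio. The median GC content within 1 kb of the start was 49.6% in the members, with a range from 38.7% to 62.3%, and 50.9% over all promoters with a position. Across the 76 members GC content and the mean log2 ratio had a Pearson r of -0.40 and a Spearman rho of -0.40, compared with -0.54 and -0.54 across 22329 promoters that share the same 4 libraries. In the lowest GC quartile of the table the 9 members had a median log2 ratio of -0.03 against 0.89 over all promoters there, and in the second quartile the 34 members had one of -0.41 against -0.12. In the third quartile the 21 members had one of -0.52 against -0.64, and in the highest the 12 members had one of -1.67 against -1.10. Mrps2 had a GC content of 52.9% and lay well above the trend, Mrps10 had 47.1%, and Mrps34 had 59.4%. With the trend removed, the median member stood at percentile 41.3. The part of GC content in the ratios was not tested further.

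**Figure D4:**
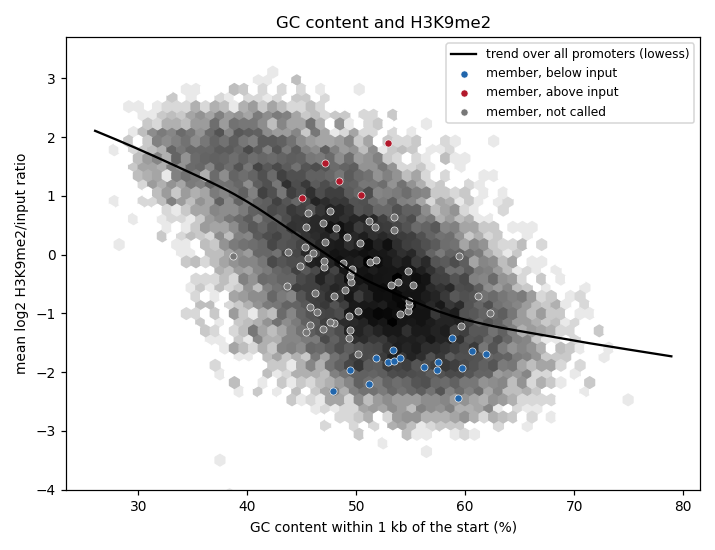
Mean log2 H3K9me2/input ratio (y axis) against GC content within 1 kb of the start (x axis, %), with all promoters as grey hexagons (darker for more), the black line as their lowess trend and members as points coloured by the edgeR call. Most members lie between 45% and 55% GC, and the 5 members above input, at 45.0% to 52.9% GC, lie above the line.

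CpG pairs and 3 of the 5 motifs were more frequent in the start regions of the members than in all such regions, and the CCAAT and TATA boxes were not. No enrichment was tested. Those 3 motifs each contain a CpG pair, and the CCAAT and TATA boxes contain none. The frequency of the motifs and that of CpG pairs can therefore not be told apart here. The median number of CpG pairs in the 230 bases around the start was 15 in the members and 8 over all promoters, with 21 in the members called below and 11 in those called above input. CCGGAAG, the ETS core, occurred on either strand in 22 of 76 members (28.9%), compared with 8.75% of all 22329 regions of that length. ATGGCGG, the YY1 core, occurred in 8 members (10.5%), compared with 3.07%, and GCATGCG, the NRF1 core, in 6 members (7.89%), compared with 3.64%. CCAAT occurred in 24 members (31.6%), compared with 32.4%, and TATAAA in 3 members (3.95%), compared with 9.92%.

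Motif content is set beside H3K9me2 without a test. The ETS core was present in 3 of the 5 members above input and in 6 of the 16 below, and members with it had a median log2 ratio of -0.49 against -0.62 for members without it. In the printed regions it stands in Mrps10, Mrps18a, Mrpl3 and Mrps34, while the regions of Mrps2 and Mrps15 hold none of the 5 motifs, which says only that these letters are missing from that stretch. The region of Mrpl41, without ChIP reads, holds 24 CpG pairs and that of Mrps2, the highest member, holds 20. Mrpl3 holds 7.

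Within 100 kb of the 5 members above input, edgeR called 3 of 24 other promoters above (12.5%), against 18.6% of all promoters. Within 100 kb of Mrps2, none of 7 other promoters was called above input by edgeR or DESeq2 (0 at an unadjusted p under 0.05), and the highest of them, Gm10134, had a log2 ratio of 0.04. Within 100 kb of Mrps10, Guca1b at 16.5 kb was called above (7 and 17 ChIP reads against 19 and 26 input reads) and the other 3 of 4 were not, while DESeq2 called none of the 4 above (1 at an unadjusted p under 0.05 in edgeR). Of 6 promoters around Mrps18a none was above by either tool (1 at an unadjusted p under 0.05 in edgeR, Mad2l1bp) and 3 were below input, among them Polh and Xpo5 without any ChIP read. Of 5 promoters around Mrps15 none was above by either tool (0 at an unadjusted p under 0.05) and Oscp1 was below. Around Mrpl3 the other 2 promoters, Nudt16 and 1700080E11Rik, were both above input by edgeR, and DESeq2 called 1 of them. The table holds promoter windows only, so the chromatin between them was not measured here.

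**Figure D5:**
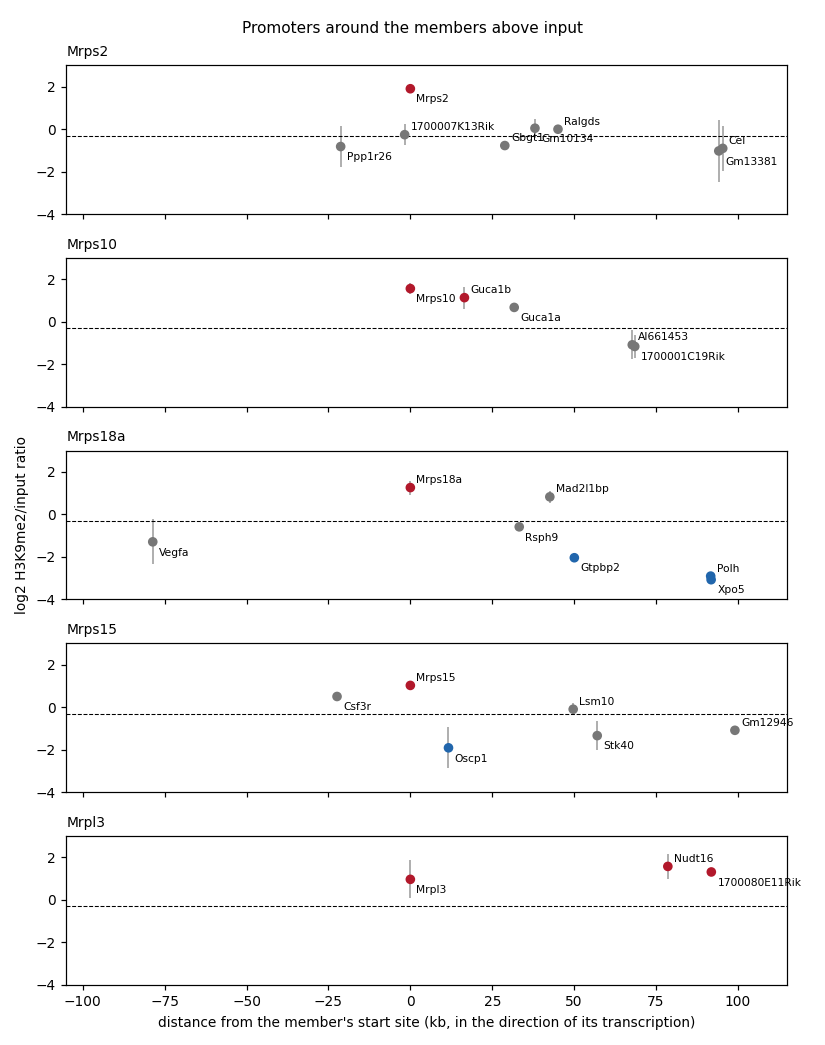
Mean log2 H3K9me2/input ratio (y axis) of the promoters within 100 kb of each member called above input (x axis, distance in kb in the direction of its transcription), red for above input, blue for below, grey for not called, with lines joining the values of the 2 experiments and the dashed line at the median of all promoters. Mrps2 stands above all its neighbours, while both neighbours of Mrpl3 are also above input.

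The other genes of mitochondrial translation had a median close to that of the members, with wide differences among their groups. Of 56 such genes in the table, 17 were called below (30.4%) and 4 above input (7.14%) by edgeR, against 17.0% and 18.6% of all promoters, with a median log2 ratio of -0.57 and a median percentile of 42.3. The list and the members are not fully independent. Sars2, 1 of the genes called below, starts 172 bases from the member Mrps12, which was also called below. Of the 17 mitochondrial tRNA synthetases, which load tRNAs with amino acids, 7 were below and 1 above, with a median log2 ratio of -1.34. Of the 21 assembly factors 6 were below and 1 above, and of the 12 translation factors, at a median percentile of 56.1, 3 were below and 2 above. Of the 6 ribosomal subunits under other symbols 1 was below and 0 above by edgeR (1 above at an unadjusted p under 0.05 in edgeR). DESeq2 called 0 of the 6 above, but left the adjusted p undefined at most of them. Among the lowest were Rpusd4, a pseudouridine synthase, with 0 and 0 ChIP reads against 18 and 38 input reads, Fars2, the phenylalanyl-tRNA synthetase, with 0 and 3 against 27 and 71, and Dhx30, an RNA helicase, with 0 and 1 against 28 and 33. The 4 highest, all called above input by edgeR, were Mtif2, the initiation factor, with 14 and 28 against 16 and 61, Fastkd2, an RNA-binding assembly factor, with 8 and 30 against 20 and 39, Pars2, the prolyl-tRNA synthetase, with 15 and 19 against 29 and 40, and Mtif3, a further initiation factor, with 9 and 22 against 23 and 51. The call at Mtif3 (edgeR adjusted p = 0.0382) was lost with the experiment as a block (edgeR adjusted p = 0.0567) and in DESeq2 (adjusted p = 0.193). Pars2 lost its call in DESeq2 (adjusted p = 0.0990), while Mtif2 and Fastkd2 kept theirs in both.

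For reference within the same libraries, Actb, used in the study as a locus without H3K9me2, had 0 and 1 ChIP reads against 31 and 53 input reads, a ratio of 0.0119. Magea2, used as a marked locus, had 3 and 7 against 6 and 16, a ratio of 0.455 (edgeR adjusted p = 0.170) and a mean log2 ratio of 1.14, which Mrps2, Mrps10 and Mrps18a passed. Promoter totals were 162233 and 229605 reads in the ChIP libraries and 619100 and 1084349 in the input libraries of v102 and v134. Promoter H3K9me2 is not expression, so marker genes do not check the cell type: of 5 smooth muscle genes Myh11 was below and Smtn above input, of 3 endothelial genes 1 was below, of 3 fibroblast genes 1 was below and of 2 leukocyte genes 1 was above. Other cell types left in the medial layer and marked VSMCs cannot be told apart in such counts.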

How the data were processed

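H3K9me2 ChIP and input libraries of 2 experiments were analysed, 4 in all, each a separate sample per the labels. Per the labels and the study's methods, the authors trimmed 75-base paired-end reads (Trim Galore 0.4.2, cutadapt 1.9.1), aligned them to GRCm38 (Bowtie2 2.2.7) and counted reads within 1 kb of each start site with SeqMonk. The deposited table holds raw counts per library, their sums and the ratio of the sums, unscaled. Every promoter has at least 21 summed input reads, so the authors' minimum of 20 applied to the sum. The annotation release and the handling of duplicate reads are not given in the sources used here, and a matched symbol does not establish the same start site. For Mrpl33, Mrps24 and Mrpl35, 3 members in all, the nearest coding start is over 1 kb from the GENCODE start.

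Counts were compared by edgeR 4.0.16 (R 4.3.3), with TMM normalization, the quasi-likelihood test and Benjamini-Hochberg adjustment at 0.05 over 26354 promoters, with DESeq2 1.42.0 as the other tool tried. Standard errors of edgeR fold changes were derived from F as |log2 fold change|/√F. The median fitted log2 fold change over all promoters was -0.35. Ratios used a pseudocount of 1, intervals are 95% Wilson intervals, and the GC trend is a lowess fit (fraction 0.3). The test was tested on simulated data. The remaining steps ran in Python 3.11.15 with pandas 2.3.3 and numpy 2.4.6, statsmodels 0.14.6 for the trend and matplotlib 3.10.9 for plots.

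ChIP and input of one experiment belong together per the study's methods, so v102 and v134 each mark a pair. The ChIP difference and the input difference between experiments had a correlation of 0.104 across promoters. Neither the ChIP libraries (chi-square over degrees of freedom 1.52) nor the input libraries (1.28) agreed within counting error, so none is a copy of another. These values cannot tell whether the libraries came from separate material. The study describes 2 independent ChIP experiments. With 2 libraries a group, edgeR's p-values rest on counting noise and on a spread estimated with information from all promoters. They cover these libraries only and do not measure how well the experiments agree at a single promoter. Mrps15, with an SD of 0.07 between the experiments' log2 ratios, had an SE of 0.42. Mrpl3, with an SD of 1.27, had an SE of 0.48.

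Named members are the 8 lowest and 8 highest by mean log2 ratio, the 6 with most input reads, the 5 with the largest gap between experiments, and all members above input or without ChIP reads, 25 in all. Of the other translation genes the 4 lowest and 4 highest are named, except 1 that is not reported here, and neighbours, window partners, Mrps27 (tied with Mrps17 in input reads) and the members with a distant coding start were named after their values were seen. The members, groups and lists were chosen with earlier results of these data known.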

Additional observations from a re-analysis of the deposited data

How the results depend on the processing

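Counts of called members moved with the fit. Of the 16 members below input, 9 were called with the experiment as a replicate block, all 9 among the 16, and 7 where each input had 20 reads or more (56 members tested). The latter was 12.5% of the members tested, against 12.0% of all such promoters. Above input it was 12.5% against 17.5%. DESeq2 called 0 below (9 at an unadjusted p under 0.05, against 24 in edgeR), and it left the adjusted p undefined at 47 members, all 16 among them. With members in a shared window left out, an alternative chosen after seeing the data, 6 of 40 were below. Leaving out 1 library gave 0 to 11 below and 2 to 10 above. Of the 5 above input, the paired fit called 3 and DESeq2 2. Library totals in place of TMM moved the median fold change over all promoters by -0.14 (log2) and gave 22 below, the 16 included, and 4 above, against 21.5% and 16.3% of all promoters. The 17 translation genes below input became 9 with 20 reads in each input, 0 by DESeq2 (15 at an unadjusted p under 0.05, adjusted p undefined at all 17), and 2 to 14 without 1 library. With the replicate block, the counts below also moved by over 1.5 times in the groups by symbol, origin and window, as given in the report, and translation factors above went from 2 to 1.

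The median log2 ratio of the members (-0.56) was 0.17 with a pseudocount of 5 and -0.22 with the GC trend removed, settings that move all promoters and left the median percentile at 40.8 and 41.3, against 42.6. It was -0.23 without shared windows (percentile 52.5) and -0.71 to -0.47 in single experiments, which gave median percentiles of 33.0 to 47.6. With 20 reads in each input the percentile was 51.1. The 23 members in the lowest quartile became 14 with 20 reads in each input, 9 without shared windows and 20 to 25 in single experiments. The 7 in the top quartile became 4 without a pseudocount and 6 to 12 in single experiments. The log2 fold change of Mrpl3 reversed to -0.73 without the v134 ChIP library, and was 2.33 without the v102 one. Of the 25 named members, the block lost 5 calls and library totals lost 1 and gained 2. Of 19 tested with 20 reads in each input, 2 were lost and 3 gained, and of 12 with an adjusted p in DESeq2, 3 were lost. Leaving out 1 library lost up to 12 and gained up to 3. Depth limits single members most: at 3 and 6 ChIP reads, the median member cannot be placed more closely than its interval.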

Other observations

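Mrp63, a large subunit gene whose symbol has neither Mrpl nor Mrps, was not among the 76 members. It had 4 and 3 ChIP reads against 27 and 68 input reads, a ratio of 0.0737 and a percentile of 23.4, and was called below input by edgeR's quasi-likelihood test (adjusted p = 0.0340).

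Among the members with a shared window, some partners further away differed widely from the member. Mrpl48, a large subunit gene, had 1 and 3 ChIP reads against 21 and 34 input reads, and Rab6a, whose start is 891 bases away, had 10 and 14 against 19 and 28. Mrpl41, without ChIP reads, lies 935 bases from Pnpla7, which had 2 and 5 against 11 and 26. These pairs were picked after their values were seen, and their differences were not tested.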
